A study of Macaca mulatta with 9 samples.

Results

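The subunits of oxidative phosphorylation that are encoded in the nucleus were followed in whole blood of 9 rhesus macaques. Members were the genes of the deposited table whose symbols belong to respiratory complexes I to IV, to cytochrome c or to ATP synthase (complex V), and whose value, with the logarithm undone, was at least 1 in 3 or more of the 9 libraries. Of 24371 genes in the table, 75 carried such a symbol and 71 passed that minimum. They comprised 35 subunits of complex I, 4 of complex II, 6 of complex III, cytochrome c itself, 8 of complex IV, 16 of complex V and 1 inhibitor of complex V. Apart from their symbols, members were chosen by 1 measured value, this minimum. The 4 symbols under it were ATP5PF, listed at 0 in all libraries but ABPC_EV replicate 3 (0.111), and NDUFS5, COX6B2 and COX7AH, whose third-highest libraries were at 0.208, 0.607 and 0.683, all on the per-million scale of the deposited table. Just inside it were NDUFB3 and NDUFA5, at 1.69 and 2.505 by the same measure. All 71 reached 1 in at least 1 library of every group. UQCRFS1, COX4I2, COX6A1, COX6A2, COX7A1, COX7A2, COX7A2L, COX8C and NDUFA4L2 were not analysed here under those names.

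The animals, labelled wild type and assigned to groups at random, received PBS, the vehicle, or extracellular vesicles, which are membrane particles that cells release. The PBS group had 3 animals, which the sample descriptions call Old. The FBMSC_EV group had 3 animals given vesicles named Evs-FBMSC, and the ABPC_EV group had 3 animals given vesicles named Evs-ABPC, from antler blastema progenitor cells. No dose, interval, age or sex is given in the labels, and age-related phenotypes are the topic of the series by its title. Whole blood is a mixture of cell types, so fewer cells of a type and less RNA per cell cannot be told apart in these values.

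Oxidative phosphorylation takes place in the inner mitochondrial membrane. Complexes I and II take electrons from NADH and succinate, complex III passes them to cytochrome c, and complex IV reduces oxygen, while complexes I, III and IV pump protons that drive ATP synthesis by complex V. Most subunits are nuclear genes, and complexes I, III, IV and V also hold subunits made from the mitochondrial genome. In blood, leukocytes, platelets and reticulocytes hold mitochondria, which red cells lose as they mature.

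Each library held 11.7 to 14.5 M reads (1 M is 1000000), as recovered from the values, and between 8075 and 23414 of these fell on the members. Globin transcripts took 88.2% to 92.7% of the deposited per-million total under PBS, 82.3% to 87.6% under FBMSC_EV and 70.9% to 82.4% under ABPC_EV. Deposited values share a fixed total in each library, so the other genes together are listed higher where globin takes less. Levels below are therefore per-million values after median-ratio scaling, in which each library is divided by the median ratio of its genes to their geometric means ("scaled values"). They are per gene length, which puts different genes on 1 scale, though how reads of near-identical copies were handled is not given. Differences are in log2(scaled value + 1) from limma, given with their standard error (SE), and adjusted p-values are over all 10596 genes tested. On this scale the difference of a low gene is understated.

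Summed over the 71 members, the scaled values were 1502, 1538 and 1173 under PBS, 1194, 1054 and 1073 under FBMSC_EV, and 820.4, 806.3 and 783.8 under ABPC_EV. All 3 ABPC_EV libraries were below all FBMSC_EV and PBS libraries, while 1 FBMSC_EV library was above PBS replicate 3. As deposited, the order was the opposite. The summed members then made up 706.1 ± 202 of each 1000000 in PBS blood, 1158 ± 123 in FBMSC_EV blood and 1656 ± 371 in ABPC_EV blood (SD over 3 animals).

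The comparison of ABPC_EV with PBS asks how blood expression differed after vesicles from antler progenitor cells. In limma on the scaled values 0 of 71 members passed an adjusted p of 0.05, as did 0% of all genes tested. At an unadjusted p under 0.05 there were 26 members, all lower (36.6%), against 7.12% of all genes lower, and 0 were higher, against 3.08%. The count with limma-voom on recovered reads was 0 members after adjustment (0.00944% of all genes) and 24 lower before it (33.8%), against 6.69% of all genes lower. In 27 members every ABPC_EV library was below every PBS library (38.0%, against 7.51% of all genes), and in 0 members was it above (against 6.45%). The median difference was -0.38 over the members and 0.0019 over all genes, and 58 members were below 0 (81.7%, against 49.8% of all genes). Both the choice of the members and their minimum were made with these samples, so the counts describe the members and are no independent evidence.

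The direction depended on the scaling. On the values as deposited, limma called 57 of 71 members higher under ABPC_EV than PBS (80.3%), against 90.9% of all genes, and 0 lower, against 0.0566%, with a median of 1.41 for the members and 1.41 for all genes. The share of members called was below the share of all genes there. Every difference given below as lower is lower relative to the median gene after scaling. Only ATP5F1E and COX7B were lower on both scales, at -0.40 and -0.32 as deposited, with limma adjusted p of 0.38 and 0.53.

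**Figure D1:**
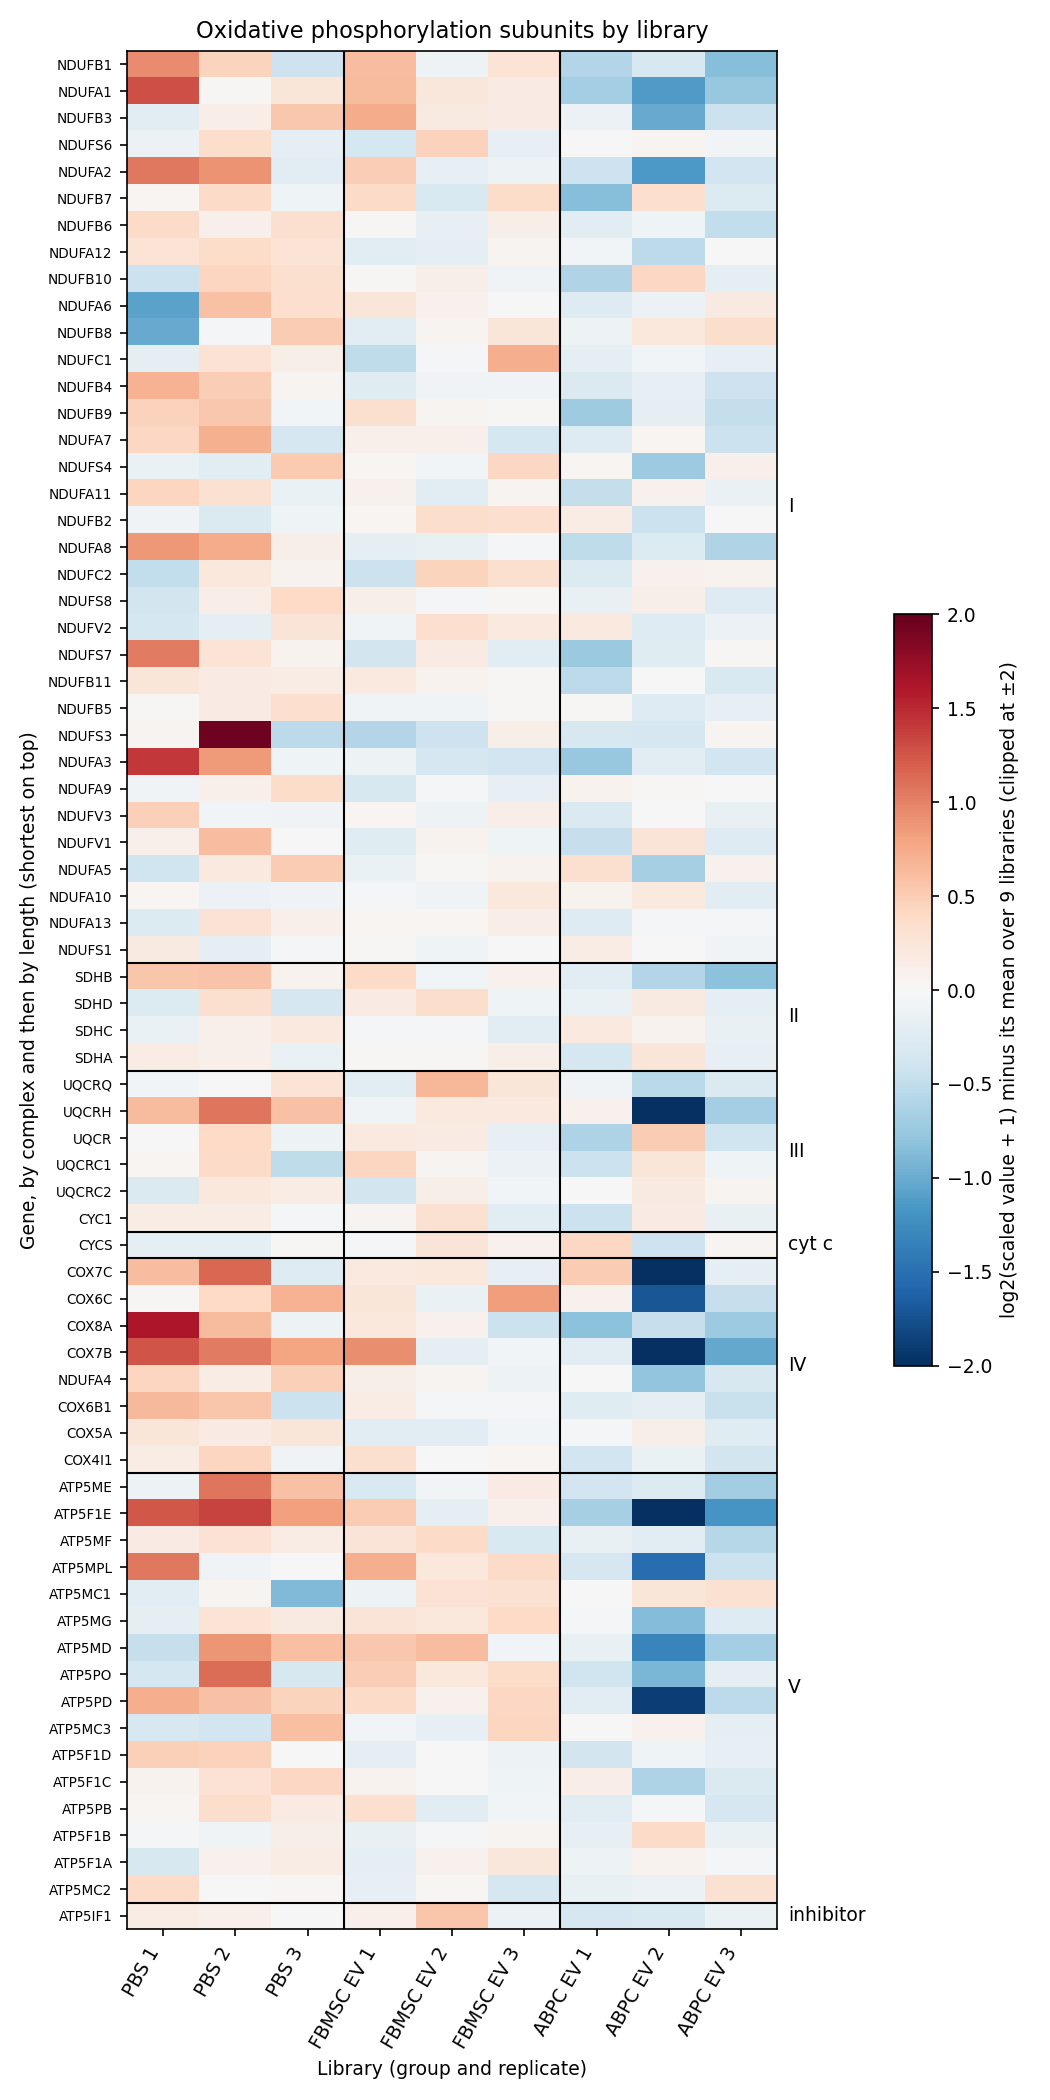
The heat map shows log2(scaled value + 1) of 70 of the 71 members (rows, by complex and within it by gene length) in each of the 9 libraries (columns), minus the member's mean over the libraries, with colours clipped at ±2. Blue cells gather in the ABPC_EV columns, most of all among the short genes of complexes IV and V and in ABPC_EV replicate 2, where COX7B, COX7C, UQCRH and ATP5F1E are at the blue end of the scale.

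Complex I had a median difference of -0.30 between ABPC_EV and PBS, with 29 of its 35 subunits below 0. At an unadjusted p under 0.05, 12 were lower, against 7.12% of all genes, and 0 higher, against 3.08%. In limma 0 passed the adjusted p. The 16 subunits of the matrix arm, which holds the flavin and the iron-sulfur clusters, had a median of -0.22, and the 19 of the membrane arm, where protons are pumped, a median of -0.38. NDUFS1, the largest iron-sulfur subunit, was at 4.14, 2.99 and 3.50 under PBS, 3.62, 3.29 and 3.57 under FBMSC_EV and 4.04, 3.57 and 3.35 under ABPC_EV. The groups overlapped. NDUFV1, which binds NADH and flavin, stood at 8.79, 13.0 and 8.11 under PBS and at 5.62, 9.90 and 6.63 under ABPC_EV, with overlap and a difference of -0.39 ± 0.24 (SE).

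Accessory subunits of complex I held its lowest differences. NDUFA8, a membrane-arm subunit with paired disulfide bonds, had scaled values of 19.8, 18.02 and 11.3 under PBS, 9.06, 9.31 and 10.2 under FBMSC_EV and 6.98, 8.36 and 6.53 under ABPC_EV. The 3 groups did not overlap, with PBS highest and ABPC_EV lowest, and the ABPC_EV mean was 2.25 times lower than that of PBS (-1.04 ± 0.22, limma adjusted p = 0.136). NDUFA1, a single-span membrane protein needed for assembly of the arm, was at 28.5, 11.3 and 13.2 under PBS, 17.6, 13.1 and 12.53 under FBMSC_EV and 6.49, 4.48 and 6.12 under ABPC_EV. PBS and FBMSC_EV overlapped, and every ABPC_EV library was below both (-1.38 ± 0.32 against PBS, limma adjusted p = 0.167).

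NDUFA2, a matrix-arm subunit and the complex I member with the highest mean level, read 37.3, 33.1 and 14.8 under PBS, 24.9, 15.3 and 16.1 under FBMSC_EV and 12.7, 7.27 and 13.0 under ABPC_EV. PBS replicate 3 was close to the ABPC_EV libraries, and the difference was -1.23 ± 0.37 (limma adjusted p = 0.269). For NDUFA3, a small membrane-arm subunit, the 3 PBS libraries were at 12.1, 7.83 and 3.608, those of FBMSC_EV at 3.602, 2.89 and 2.79, and those of ABPC_EV at 1.91, 3.21 and 2.78. PBS was above both vesicle groups in every library, narrowly in replicate 3.

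Of the 35 complex I subunits, 6 were above 0 between ABPC_EV and PBS, against 5321 of 10596 genes tested. NDUFB8, a membrane-arm subunit, had the smallest p among those above 0, with 3.42, 7.68 and 11.7 under PBS and 7.26, 9.28 and 10.4 under ABPC_EV, a difference of 0.33 ± 0.34 within the spread of PBS. NDUFB7, another membrane-arm subunit, ranged from 9.68 to 23.3 under ABPC_EV and from 17.3 to 24.2 under PBS, with overlap (-0.38 ± 0.33). NDUFS3, a core matrix subunit, had 1 library far from the rest: PBS replicate 2 was at 33.8, with 8.42 and 5.30 in the other PBS libraries and 5.04 to 8.80 in the 6 vesicle libraries. Its difference was -0.695 ± 0.53 with all libraries and 0.03 without that one. NDUFS3, NDUFA3 and NDUFB3 were chosen for mention after their values were seen.

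Complex II, succinate dehydrogenase, which also works in the citric acid cycle, had a median difference of -0.069 over its 4 subunits. With so few subunits the median ranged from -0.18 without ABPC_EV replicate 2 to -0.0047 without ABPC_EV replicate 3, and leaving out PBS replicate 2, PBS replicate 3 or ABPC_EV replicate 1 also moved it by over 1.5 times. SDHB, the iron-sulfur subunit, was at 29.9, 30.2 and 21.2 under PBS, 26.5, 19.3 and 21.3 under FBMSC_EV and 17.1, 13.0 and 10.97 under ABPC_EV. All ABPC_EV libraries lay below the others, and the difference from PBS was -0.94 ± 0.24 (1.98 times lower by the means, limma adjusted p = 0.201). The other three subunits overlapped between all groups. SDHA, the flavoprotein that oxidizes succinate, had 15.0, 14.5 and 12.2 under PBS and 10.4, 16.03 and 11.97 under ABPC_EV (-0.13 ± 0.20). SDHC and SDHD, the membrane anchors, differed by -0.0093 ± 0.16 and 0.047 ± 0.22.

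Complex III had a median of -0.25 over 6 subunits, and leaving out PBS replicate 2 or ABPC_EV replicate 1 brought it to -0.16 or -0.068. UQCRH, the hinge subunit beside cytochrome c1, was at 11.8, 16.5 and 11.5 under PBS, 6.87, 8.53 and 8.54 under FBMSC_EV and 7.78, 1.07 and 4.19 under ABPC_EV. PBS was above both vesicle groups, and the ABPC_EV group spread widely, with replicate 2 resting on 19 reads. Its difference from PBS was -1.63 ± 0.43 with all libraries and -1.06 without ABPC_EV replicate 2. UQCRQ, a small ubiquinone-binding subunit, was at 10.9, 11.6 and 14.1 under PBS and 10.9, 7.53 and 9.19 under ABPC_EV, apart by a narrow margin (-0.38 ± 0.25). The core proteins and the heme subunit overlapped: UQCRC1 differed by -0.053 ± 0.29, UQCRC2 by 0.054 ± 0.21 and CYC1, cytochrome c1, by -0.23 ± 0.22. CYCS, the mobile cytochrome c itself, was among the lowest members, at 1.69, 1.69 and 2.11 under PBS, 1.95, 2.63 and 2.24 under FBMSC_EV and 3.06, 1.28 and 2.15 under ABPC_EV, with overlap throughout.

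Complex IV, cytochrome c oxidase, had the lowest median of the complexes with more than 1 member, at -0.90 between ABPC_EV and PBS. All 8 nuclear subunits measured were below 0, from -2.28 to -0.26. In limma 4 of them were at an unadjusted p under 0.05, against 7.12% of all genes lower, and 0 passed after adjustment. The median moved to -0.55 without ABPC_EV replicate 2. COX7B, a small subunit that spans the membrane, was at 84.4, 72.2 and 60.9 under PBS, 66.9, 30.2 and 33.6 under FBMSC_EV and 29.5, 5.37 and 16.5 under ABPC_EV. ABPC_EV lay below both groups, by 4.23 times from PBS by the means (-2.28 ± 0.52, limma adjusted p = 0.161). COX8A, the ubiquitous form of the smallest subunit, had 189, 95.9 and 57.0 under PBS, 70.96, 65.3 and 45.4 under FBMSC_EV and 34.2, 44.4 and 36.7 under ABPC_EV. The PBS libraries spread over a wide range, and ABPC_EV was below all of them (-1.38 ± 0.40, limma adjusted p = 0.256).

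COX4I1, the regulatory subunit that binds ATP, was the complex IV member with the highest mean level. It read 80.1, 97.1 and 68.8 under PBS, 90.5, 72.6 and 73.8 under FBMSC_EV and 55.0, 65.6 and 55.9 under ABPC_EV, with ABPC_EV below the rest (-0.46 ± 0.24, limma adjusted p = 0.555). COX5A, its structural partner, had 17.2, 16.3 and 17.2 under PBS, 12.2, 12.3 and 13.8 under FBMSC_EV and 14.2, 15.7 and 12.01 under ABPC_EV. Here both vesicle groups were below PBS and overlapped each other. COX6B1, the intermembrane-space subunit, overlapped between PBS and ABPC_EV (-0.55 ± 0.29), while NDUFA4, a subunit of complex IV despite its name, did not (-0.72 ± 0.23, limma adjusted p = 0.283). COX7C and COX6C, named after their values were seen, are small membrane subunits whose differences rest on ABPC_EV replicate 2. COX7C moved from -1.08 to -0.35 and COX6C from -1.07 to -0.56 without it.

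**Figure D2:**
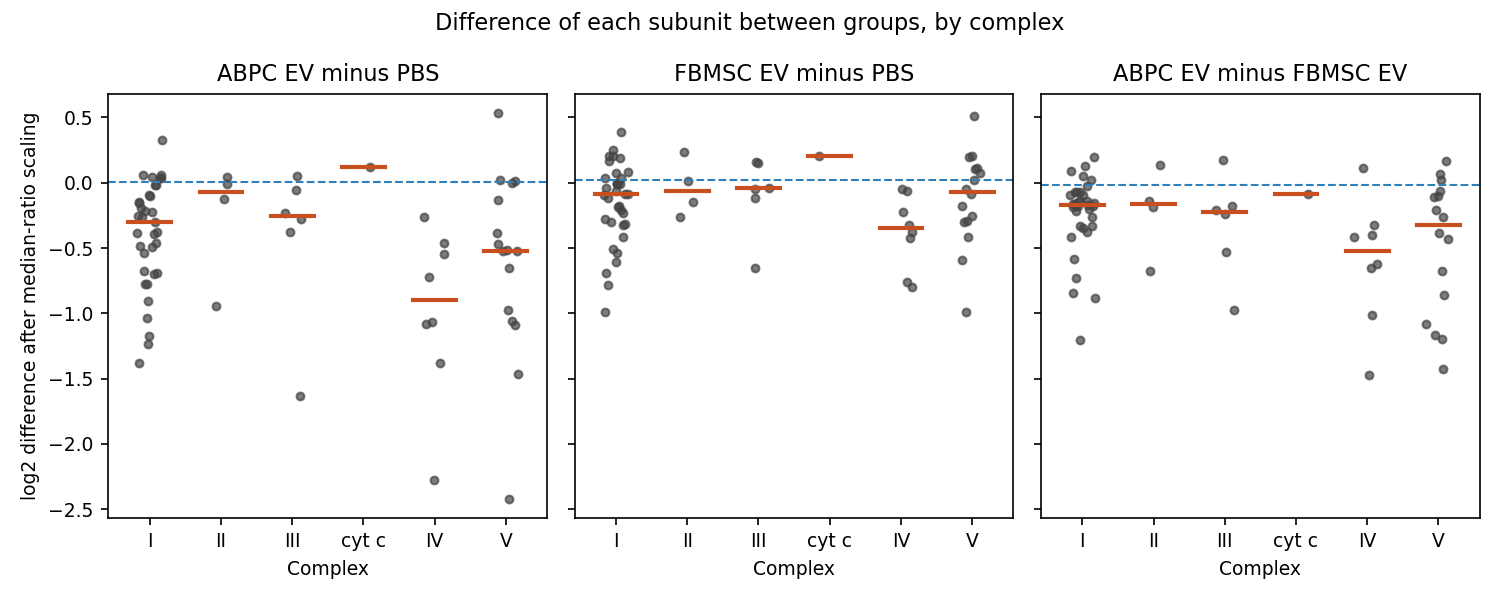
Each point is 1 of 70 subunits (the ATP synthase inhibitor is left out), placed by its complex on the x axis and by its log2 difference on the y axis, in 3 panels for the 3 comparisons. Orange bars are medians of a complex and the dashed line is the median of all genes tested. The bar for complex IV is lowest in each panel, at -0.90, -0.35 and -0.52.

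Complex V had a median of -0.52 between ABPC_EV and PBS, with 12 of 16 subunits below 0. Members of its catalytic head, F1, differed from each other. ATP5F1E, the epsilon subunit of the central stalk, had the highest mean level of all 71 members and also the lowest p. Its scaled values were 239, 257 and 177 under PBS, 143, 88.6 and 108 under FBMSC_EV and 62.6, 24.5 and 43.5 under ABPC_EV. The 3 groups did not overlap, and the ABPC_EV mean was 5.15 times lower than that of PBS (-2.42 ± 0.37). The limma adjusted p was 0.0803, against 0.0589 for the lowest of any gene, so it did not pass.

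The large F1 subunits were nearly level. ATP5F1A, the alpha subunit, was at 41.3, 55.6 and 57.9 under PBS, 45.9, 55.2 and 61.1 under FBMSC_EV and 48.5, 54.9 and 51.0 under ABPC_EV. ATP5F1B, the catalytic beta subunit, was at 40.9, 39.7 and 45.0, then 37.3, 41.1 and 43.1, then 36.9, 54.6 and 38.0. Both overlapped between all groups, with differences of 0.0096 ± 0.23 and 0.021 ± 0.23. Between these and epsilon stood ATP5F1C, the gamma subunit (-0.52 ± 0.22), and ATP5F1D, the delta subunit (-0.53 ± 0.19), the latter at 13.0, 12.9 and 9.23 under PBS and 6.82, 8.51 and 7.998 under ABPC_EV without overlap. Gamma and delta were chosen after their values were seen, to complete the F1 head.

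**Figure D3:**
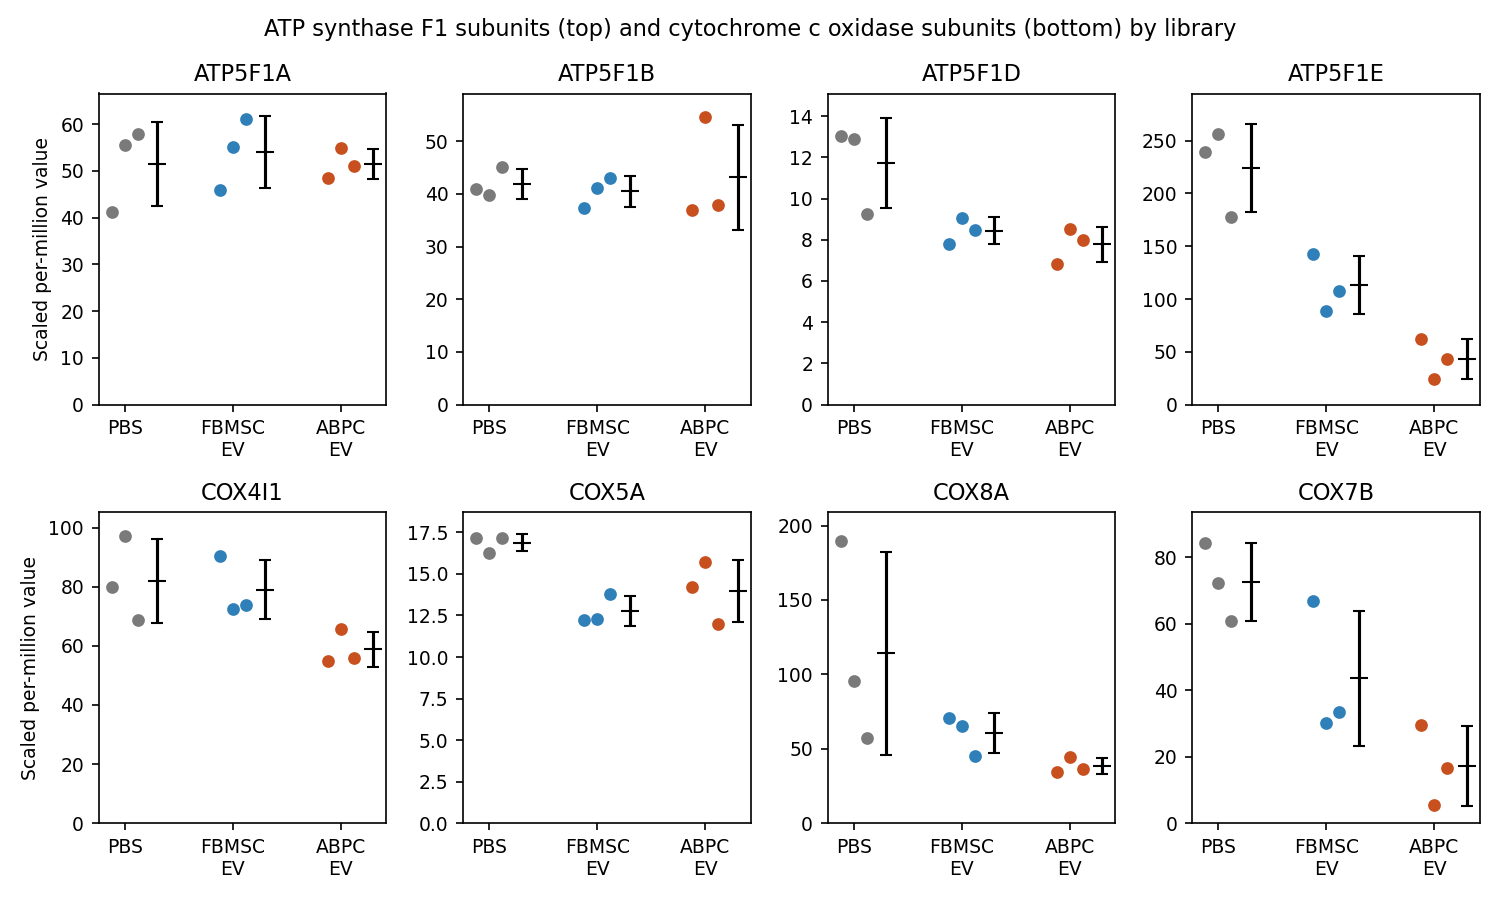
Scaled per-million values (y axis, from 0, a different range in each panel) of 4 F1 subunits of ATP synthase in the upper row and 4 subunits of cytochrome c oxidase in the lower row, by group on the x axis. Coloured points are libraries, and black bars are the mean ± SD of 3. ATP5F1A and ATP5F1B overlap between groups, while ATP5F1E steps down from 177 to 257 under PBS to 24.5 to 62.6 under ABPC_EV.

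In the membrane part of complex V, the paralogs ATP5MC1, ATP5MC2 and ATP5MC3, which encode the same mature c-ring subunit behind different import sequences, did not share a direction. ATP5MC1 was at 4.82, 5.95 and 2.64 under PBS, 5.25, 7.22 and 7.31 under FBMSC_EV and 5.76, 6.97 and 7.30 under ABPC_EV. It had the smallest p of the members above 0 (0.54 ± 0.25, limma adjusted p = 0.505), and the difference was 0.27 without PBS replicate 3. ATP5MC2 differed by -0.13 ± 0.20 and ATP5MC3 by 0.00056 ± 0.28, both with overlap. ATP5PD, subunit d of the peripheral stalk, named after its values were seen, had 24.3, 22.0 and 19.97 under PBS, 18.9, 15.2 and 19.3 under FBMSC_EV and 12.1, 3.15 and 9.70 under ABPC_EV. All 3 groups were apart, and its difference from PBS was -1.46 ± 0.38, or -0.96 without ABPC_EV replicate 2. ATP5IF1, the inhibitor that blocks ATP hydrolysis, was at 10.5, 10.2 and 9.34 under PBS and 7.28, 7.44 and 8.56 under ABPC_EV (-0.33 ± 0.20, limma adjusted p = 0.639), narrowly apart.

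The vesicle groups were also compared with each other and FBMSC_EV with PBS. Each pair of comparisons shares a group, so their values stand side by side and are not independent. Between FBMSC_EV and PBS, limma on scaled values called 0 members and 0% of all genes. At an unadjusted p under 0.05, 5 members were lower, against 2.6% of all genes, and 0 higher, against 2.24%. The limma-voom counts were 0 after adjustment, as for 0% of all genes, and 4 lower before it, against 2.44%. In 11 members the groups did not overlap with FBMSC_EV lower (15.5%, against 4.71% of all genes), and in 1, NDUFB2 of the complex I membrane arm, with FBMSC_EV higher (against 4.96%). Medians were -0.089 for complex I, -0.066 for II, -0.044 for III, -0.35 for IV and -0.069 for V, with -0.089 for all members and 0.018 for all genes. That of complex III changed sign with the libraries used, at 0.045 without PBS replicate 2 and 0.081 without FBMSC_EV replicate 3. Without PBS replicate 1 the median was -0.14 for all members, for complex I and for complex V. NDUFA8 had the lowest limma adjusted p among the members, 0.926 (-0.69 ± 0.22), and ATP5F1E differed by -0.99 ± 0.37.

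Between ABPC_EV and FBMSC_EV, limma again called 0 members and 0% of all genes. At an unadjusted p under 0.05, 14 members were lower (19.7%), against 3.97% of all genes, and 0 higher, against 1.39%. The limma-voom counts were 0 after adjustment, as for 0% of all genes, and 14 lower before it, against 4.25%. In 20 members the groups did not overlap with ABPC_EV lower (28.2%, against 6.8% of all genes), and in 1, NDUFA9 of the complex I matrix arm, with ABPC_EV higher (against 4.23%). Medians were -0.17 for complex I, -0.16 for II, -0.22 for III, -0.52 for IV and -0.32 for V, with -0.20 for all members and -0.020 for all genes. That of complex III was -0.037 without ABPC_EV replicate 1 and -0.39 without ABPC_EV replicate 2, and that of complex II -0.077 and -0.30. ATP5F1E had the lowest limma adjusted p among the members, 0.747 (-1.43 ± 0.37). COX5A was on the other side of 0 from the rest of complex IV, at 0.12 ± 0.18.

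Ratios of 2 subunits within a library do not depend on the scaling or on the fixed total of the deposited values. They can still differ with the mixture of cell types and with gene length, and the part of either in them was not tested. ATP5F1E was recovered at 399 bases, ATP5F1B at 1749 and ATP5F1A at 1823. These pairs were formed after the values were seen and are a description without a test. The ratio of ATP5F1E to ATP5F1A was 5.78, 4.62 and 3.06 under PBS, 3.11, 1.60 and 1.76 under FBMSC_EV and 1.29, 0.446 and 0.853 under ABPC_EV. The ratio was thus above 1 in all PBS and FBMSC_EV libraries and in 1 of 3 ABPC_EV libraries. That of ATP5F1B to ATP5F1A overlapped, with means of 0.828 ± 0.145 in PBS, 0.754 ± 0.0556 in FBMSC_EV and 0.834 ± 0.141 in ABPC_EV libraries (SD, n = 3 each).

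In complex IV, COX7B to COX4I1 was 1.05, 0.743 and 0.886 under PBS and 0.536, 0.0819 and 0.296 under ABPC_EV. In complex II, SDHB to SDHA was 1.99, 2.08 and 1.74 under PBS and 1.65, 0.810 and 0.917 under ABPC_EV. In both the ABPC_EV libraries lay below all PBS libraries. The ratios of UQCRC2 and CYC1 to UQCRC1 and of COX6B1 to COX4I1 overlapped between all groups. COX5A to COX4I1 went the other way, with 0.238 ± 0.0218 in ABPC_EV above 0.164 ± 0.0265 in FBMSC_EV without overlap, while PBS, at 0.211 ± 0.0410, overlapped both (SD, n = 3 each).

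**Figure D4:**
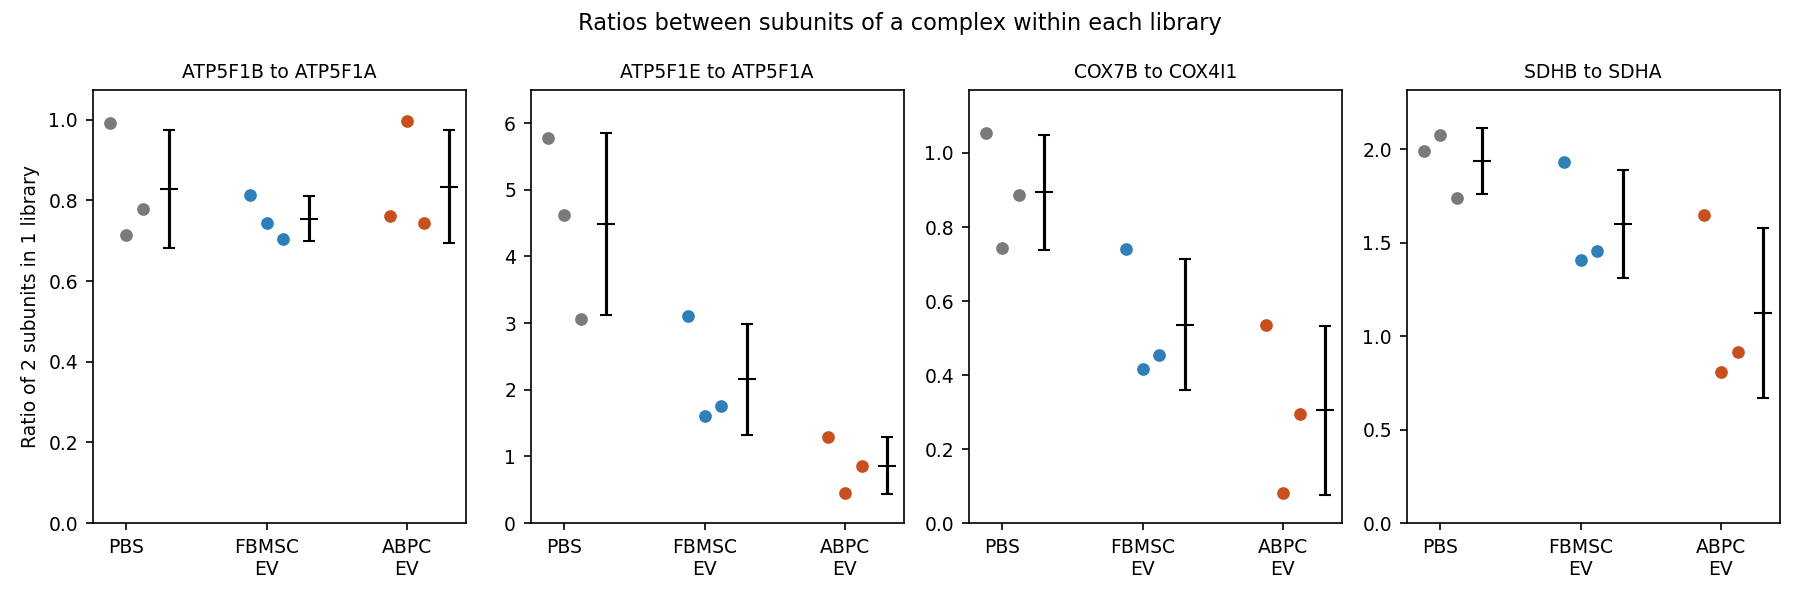
Ratio of the scaled values of 2 subunits of 1 complex in the same library (y axis, from 0, a different range in each panel) by group on the x axis, with black bars for the mean ± SD of 3 libraries. The first panel, ATP5F1B to ATP5F1A, overlaps between groups, and in the other panels every ABPC_EV library is below every PBS library.

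The makeup of the summed members also differed. Complex I took 25.3% ± 0.287 of the sum in PBS, 26.8% ± 1.45 in FBMSC_EV and 29.6% ± 2.86 in ABPC_EV libraries, and complex III took 6.43% ± 0.705, 7.87% ± 1.09 and 9.09% ± 1.24 (SD over 3 libraries). Complex IV took 25.9% ± 4.05, 23.5% ± 2.12 and 21.9% ± 1.77, and complex V took 38.0% ± 3.05, 36.6% ± 1.33 and 34.0% ± 2.498. The ABPC_EV libraries were above all PBS libraries for the shares of complexes I, II and III, and the groups overlapped for IV and V. These shares are of a sum that was itself lower under ABPC_EV, and they are not independent of the abundant members described above. The mean scaled sum of complex I was 355.7 in PBS and 237.8 in ABPC_EV libraries, and that of complex III 89.8 and 73.0.

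The differences went with gene length, which the values themselves return as whole numbers of bases. Members were short, from 270 to 2900 bases with a median of 856, against 2901 for all genes tested. Across the 71 members the difference between ABPC_EV and PBS correlated with log2 length at Pearson r = 0.53, and across all genes at 0.13. For FBMSC_EV against PBS these were 0.17 and 0.093, and for ABPC_EV against FBMSC_EV 0.60 and 0.080. The points share libraries and are not independent replicates. All 19 members under 600 bases were below 0, with a median of -0.91, while the 695 tested genes of that length had a median of -0.050 and 52.4% below 0. From 600 to under 1000 bases the medians were -0.28 for 25 members and -0.26 for all genes. From 1000 to under 1600 bases they were -0.39 for 15 members and -0.14 for all genes, and from 1600 bases up -0.11 for 12 members and 0.031 for all genes. At an unadjusted p under 0.05 in limma, 13, 7, 6 and 0 members of these classes were lower, from the shortest up. Of all genes tested, 114 of 695, 129 of 645, 161 of 1225 and 350 of 8030 were lower. The share was thus larger in each class under 1600 bases than in the class above. Genes in the higher direction were not counted by length class. With each library's trend on length removed, an alternative chosen after the data were seen, the member median was -0.15 and 12 members were lower at an unadjusted p under 0.05 (16.9%), against 5.86% of all genes. The part of length in the differences was not tested further.

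**Figure D5:**
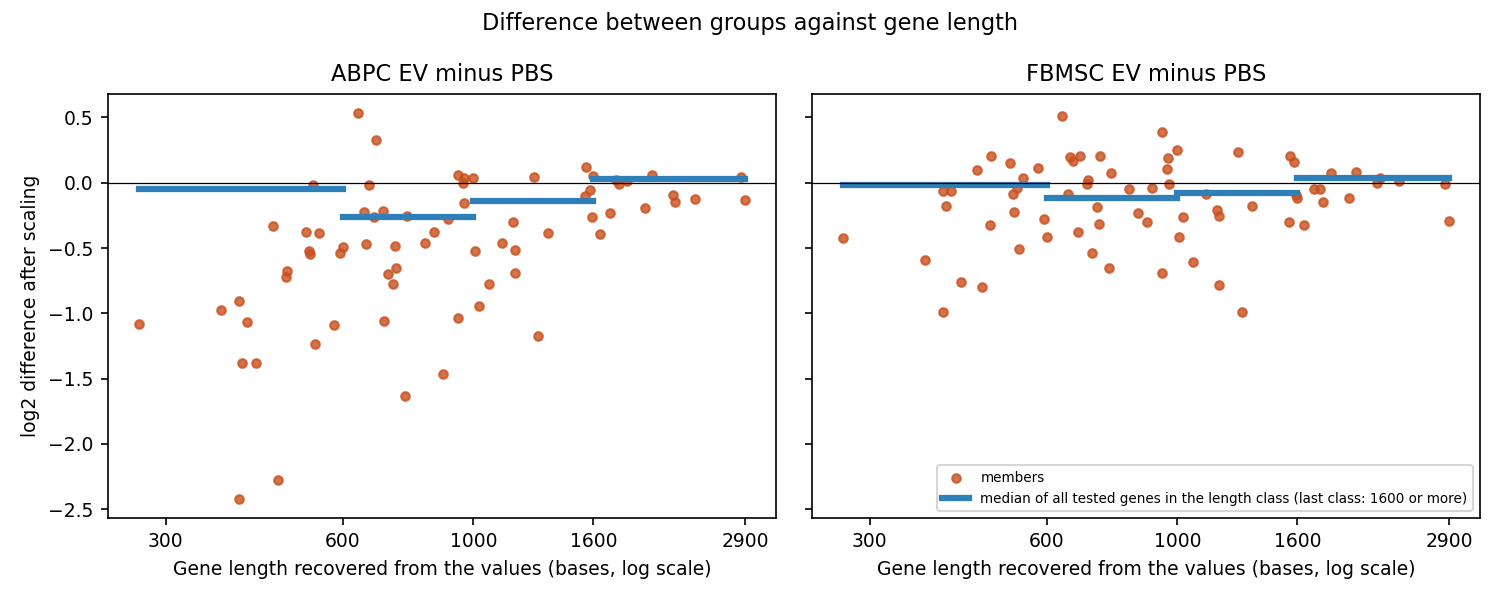
Log2 difference of each of the 71 members (points) against its recovered length in bases (x axis, log scale), for ABPC_EV and FBMSC_EV against PBS. Blue bars are medians of all tested genes in 4 length classes, the last of which also holds genes beyond the axis. In the left panel the 19 members under 600 bases all lie below 0, with a median of -0.91 where the bar for all genes is at -0.050.

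ABPC_EV replicate 2 stood apart in 10 members, which were at 50% or less of both other ABPC_EV libraries (14.1%, against 6.74% of genes tested). Among them were COX7B, COX7C, COX6C, UQCRH, ATP5PD and NDUFB3, the latter resting on 1 read there. In 35 members the same library was instead above both others (49.3%, against 40.1% of genes tested). Without it, the median difference over members under 600 bases was -0.63. Leaving out PBS replicate 3 was the only omission that gave calls among the members. ATP5F1E was then at -2.58 (limma adjusted p = 0.0312), NDUFA8 at -1.27 (0.0307) and NDUFA3 at -1.59 (0.0280), 3 of 71 members lower (4.23%) against 1.19% of all genes lower. In the same setting 6 of 13 erythroid markers and 2 of 5 markers of reticulocytes and maturing red cells were also called lower, and their part in the member calls was not tested.

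The rest of the pathway, in lists of known assembly factors, regulators and neighbours, had 0 genes past the adjusted p in limma in either direction in any of the 3 comparisons. Between ABPC_EV and PBS, 15 complex I assembly factors had a median of -0.089, 6 of complexes II and III -0.037, 13 of complex IV -0.16 and 4 of complex V -0.014. At an unadjusted p under 0.05, 3, 0, 2 and 1 of these were lower, against 7.12% of all genes, and 0 higher, against 3.08%. Regulators of nuclear respiratory genes, such as NRF1, GABPA and TFAM, had a median of 0.089 over 14 genes, and their summed scaled values were 48.0 to 50.4 under PBS, 45.4 to 49.5 under FBMSC_EV and 50.2 to 52.5 under ABPC_EV. Citric acid cycle enzymes had a median of -0.066 over 14 genes. The 11 protein genes of the mitochondrial genome in the table had a median of -0.53. Of these, 1 was lower at an unadjusted p under 0.05, against 7.12% of all genes. Their values were uneven: ND6, COX2 and ATP6 were listed at 0 in at least 1 library, and all 11 summed to 132 to 170 under PBS, 80.96 to 127 under FBMSC_EV and 83.4 to 109 under ABPC_EV. In that sum both vesicle groups were below PBS and overlapped each other. By gene, 0 of the 11 were lower without overlap between ABPC_EV and PBS (against 7.51% of all genes). The count was also 0 between FBMSC_EV and PBS (against 4.71%), and 4 of the 11 were above 0 in each of these comparisons.

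Red cell markers also differed between the groups. Of 15 erythroid markers 13 were tested, none of them at 0 in any library. All 13 were below 0 between ABPC_EV and PBS, with a median of -2.10. At an unadjusted p under 0.05, 11 were lower, against 7.12% of all genes. The summed scaled values of the 13 were 1154720 to 2816210 under PBS, 687945 to 918673 under FBMSC_EV and 299933 to 544449 under ABPC_EV. No 2 groups overlapped in this sum, most of which is HBB and HBA. By gene, 10 of the 13 were lower without overlap between ABPC_EV and PBS (against 7.51% of all genes). The count was 10 between ABPC_EV and FBMSC_EV (against 6.8%) and 4 between FBMSC_EV and PBS (against 4.71%). CA1, the red cell carbonic anhydrase, differed by -2.76 ± 0.40, with the same limma adjusted p as ATP5F1E, 0.0803. The 5 markers of reticulocytes and maturing red cells had a median of -1.12 with 4 below 0. Neutrophil, monocyte, T cell, B cell, NK and platelet lists were all detected, with medians of -0.48, 0.17, 0.45, -0.54, 0.94 and -0.061 in the same comparison and overlapping sums in every list. With all libraries, none of these genes passed the adjusted p in limma, and without PBS replicate 3 the 8 red cell markers given above did. The part of the erythroid markers, of the globin share and of the other cell types in the member differences was not tested.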

How the data were processed

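RNA of whole blood from 9 animals was measured, 1 library each, from total RNA with a NEBNext Ultra kit and paired-end sequencing, per the labels' protocols. The build was Mmul_10, per the submitters' processing notes. Aligner, counter and handling of reads shared with near-identical copies were not given in the sources used here, so members with processed pseudogenes are uncertain. The deposited values are log2 values of a per-million quantity with 0.5 added, which behaves like TPM. All 9 columns were mapped by the sample descriptions.

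The logarithm was undone, libraries were divided by median-ratio size factors, and limma 3.58.1 (trend, R 4.3.3) was fitted on log2(value + 1) over the 10596 genes that reached 1 in no fewer than 3 libraries, all 9 libraries in 1 fit, with Benjamini-Hochberg adjustment and a threshold of 0.05. For 21550 of 21551 genes (99.995%) whole reads and gene lengths were recovered, with a tolerance of 0.001. When values were altered at random, 0 of 300 genes above 0 in all 9 libraries still gave whole reads. Of genes above 0 in only 2 to 8 libraries 12 of 200 did, so recovery is less certain there. A length can be off by a whole factor shared by all libraries. The fit was also run on simulated reads, with the same spread for all genes and no change in cell mixture between groups. That setting is simpler than these data, so it does not show how well the fit performs on them. Members, lists and tests were chosen with earlier results of these data known. Named members are core or catalytic subunits, paralog sets, the 2 of highest mean level in a complex and those of smallest p in each direction, with further ones marked where they appear. A further member under this rule is not described here. Of 75 symbols, 63 were found in the table of gene IDs and 70 in the RefSeq gene table, with 3 more by synonym. That table is of another assembly, so no coordinates are given. Alternatives were other scalings, pseudocounts, filters, narrower fits, a replicate block, limma-voom, removal of the length trend and leaving out each library.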

Additional observations from a re-analysis of the deposited data

How the results depend on the processing

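Between ABPC_EV and PBS the values as deposited, without scaling, turned the medians positive: 1.41 for all members, 1.41 for complex I, 1.52 for II, 1.63 for III, 1.41 for cytochrome c, 0.95 for IV and 1.34 for V, with 57 members called. Named members turned from below to above 0 and were called there: ATP5F1C (1.32), ATP5F1D (1.32), ATP5IF1 (1.49), ATP5MC2 (1.65), COX4I1 (1.55), COX5A (1.64), COX6B1 (1.42), CYC1 (1.66), NDUFA4 (1.15), NDUFA8 (0.83), NDUFA9 (1.56), NDUFB7 (1.54), NDUFS3 (1.12), NDUFV1 (1.41), SDHA (1.76), SDHB (0.99), SDHC (1.34), UQCRC1 (1.89) and UQCRQ (1.46). As deposited, FBMSC_EV against PBS gave 0.81, 0.75, 0.88, 0.94, 0.80, 0.64 and 0.88 in the same order, and ABPC_EV against FBMSC_EV gave 0.63, 0.67, 0.71, 0.69, 0.61, 0.40 and 0.55, with 0 members called in either. All genes tested had deposited medians of 1.41, 0.70 and 0.71 in the 3 comparisons. The 13 erythroid markers tested did not share this shift, with a deposited median of -0.25 between ABPC_EV and PBS. The part of the fixed total in these medians was not tested.

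Under other settings the medians of all members, complex I and complex V between ABPC_EV and PBS were -0.24, -0.17 and -0.38 with upper-quartile scaling, which moved the median of all genes to 0.11, and -0.15, -0.13 and -0.28 with the length trend removed, an alternative chosen after the data were seen. A pseudocount of 5 gave -0.28 for all members, -0.64 for complex IV and -0.38 for complex V. Between ABPC_EV and FBMSC_EV they were -0.090, -0.053 and -0.21 with upper-quartile scaling and -0.11, -0.050 and -0.22 without the length trend, and a pseudocount of 5 gave -0.14 for all members and -0.23 for complex V. The cause of these shifts was not tested.

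Leaving out 1 library at a time gave 0 to 3 members called between ABPC_EV and PBS, with medians of -0.42 to -0.24 for complex I, -0.18 to -0.0047 for II, -0.32 to -0.068 for III and -1.10 to -0.55 for IV. Between FBMSC_EV and PBS medians were -0.14 to -0.070 for all members and -0.13 to 0.081 for complex III. Between ABPC_EV and FBMSC_EV it gave medians of -0.28 to -0.17 for all members, -0.30 to -0.077 for complex II and -0.44 to -0.25 for complex V. Same-numbered libraries correlated at -0.25 to 0.28, with 4 of 9 over 0.1, and differently numbered libraries at -0.42 to 0.35. With 3 libraries a group this cannot show whether the replicate numbers pair the libraries. The replicate block called 0 members in each comparison.

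Precision is limited by 3 animals a group and by depth: the members' median was 71 reads in PBS replicate 1 and 212 in ABPC_EV replicate 3. A p that misses the threshold does not show that groups were alike.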
